A study of Mus musculus with 2 samples.

Results

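The sodium pump beta subunit genes Atp1b1, Atp1b2 and Atp1b3 and the FXYD genes Fxyd1, Fxyd3, Fxyd5 and Fxyd6 were followed in a mouse Schwann cell line kept in either of 2 media. They were taken by gene name, and all 7 had a row among the 55323 rows of the expression table. RNA came from TgS1 cells, a line of Schwann cells (the glia of peripheral nerves) that carries a human transthyretin (TTR) transgene with the V30M change, a model of hereditary transthyretin amyloidosis. The SCM group was grown long-term in SCM, a medium whose name the labels leave abbreviated, and the DMEM group was grown long-term in DMEM, a common basal medium. Both groups carried the transgene, and there was 1 library of each, so differences between them were not checked on replicates and have neither a p-value nor an SD. The labels do not say whether the line is a single clone. The comparison bears on how gene expression in these cells varies with the medium, in a study whose title concerns the repair state of Schwann cells.

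The sodium pump moves sodium out of the cell and potassium in, at the cost of ATP, and so keeps the ion gradients on which sodium-coupled transport and membrane potential depend. A catalytic alpha subunit needs a glycosylated beta subunit to fold and to reach the plasma membrane. FXYD proteins are small single-pass membrane proteins, named for a short shared sequence, that bind the pump and adjust its affinity for ions and its transport rate.

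In SCM, 1 beta subunit gene and 3 FXYD genes stood higher than in DMEM. Atp1b2 was 22.9-fold higher, Fxyd3 6.80-fold, Fxyd1 3.16-fold and Fxyd5 3.01-fold. The Fxyd3 value is uncertain, because its row overlaps that of another gene on the other strand. Atp1b3, the most abundant member in the deposited values of both libraries, was nearly level at 30.1 FPKM in SCM and 32.6 FPKM in DMEM. Atp1b1 and Fxyd6 were near or at 0 in both. FPKM is the number of fragments per kilobase of gene length and per 1000000 reads. The members were selected on the FPKM values of these same libraries, so their direction is a description and not an independent finding.

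The table allowed whole reads to be recovered, 36666676 in the SCM library and 29085791 in the DMEM library. At these depths 3 reads, the most that a count of 0 would allow, correspond to 0.0818 FPKM in SCM and 0.103 FPKM in DMEM for a gene of 1 kb. Each interval below is a 95% exact Clopper-Pearson interval computed on recovered reads. Intervals and floors cover counting error only, and reads amplified without molecular identifiers are not independent molecules. All 12 markers in the Schwann cell list were measured, S100b among them at 213 FPKM in SCM and 177 FPKM in DMEM, and their FPKM summed to 4030 in SCM and 4181 in DMEM. A row is called measured here where it had at least 1 FPKM in 1 or both libraries. In bulk RNA, fewer cells of a type and less RNA per cell cannot be told apart.

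Promoter sequences of 6 members were found in RefSeq on GRCm38.p6, and none was at hand for Atp1b2. The 250 bases before the start that RefSeq lists are shown for the 3 FXYD genes that were higher in SCM, which are neighbours on chromosome 7. For comparison they are shown for Atp1b3, which was nearly level, and Atp1b1, which was almost silent. They are written 5′ to 3′ on the strand of the gene, with matches to 1 of 6 searched motifs in capitals. By the gene positions given below, the Fxyd1 window lies inside the gene. The windows of Fxyd5, Fxyd3 and Atp1b3 overlap their genes in part.
Fxyd5, chr7:31042332-31042581, minus strand: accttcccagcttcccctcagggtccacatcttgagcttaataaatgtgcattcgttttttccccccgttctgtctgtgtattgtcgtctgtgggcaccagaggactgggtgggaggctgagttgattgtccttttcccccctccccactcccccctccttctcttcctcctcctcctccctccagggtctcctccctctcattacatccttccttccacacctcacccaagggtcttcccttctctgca
Fxyd1, chr7:31054854-31055103, minus strand: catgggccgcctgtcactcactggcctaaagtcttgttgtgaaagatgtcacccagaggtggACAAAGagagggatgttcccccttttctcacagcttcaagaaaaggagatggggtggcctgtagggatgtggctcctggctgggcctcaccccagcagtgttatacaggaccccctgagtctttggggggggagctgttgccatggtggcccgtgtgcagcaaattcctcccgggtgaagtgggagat
Fxyd3, chr7:31076698-31076947, minus strand: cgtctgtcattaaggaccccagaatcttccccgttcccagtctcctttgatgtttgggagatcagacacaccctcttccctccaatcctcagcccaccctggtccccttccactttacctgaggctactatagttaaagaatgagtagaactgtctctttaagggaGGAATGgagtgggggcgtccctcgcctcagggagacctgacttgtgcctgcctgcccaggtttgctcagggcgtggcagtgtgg
Atp1b3, chr9:96364432-96364681, minus strand: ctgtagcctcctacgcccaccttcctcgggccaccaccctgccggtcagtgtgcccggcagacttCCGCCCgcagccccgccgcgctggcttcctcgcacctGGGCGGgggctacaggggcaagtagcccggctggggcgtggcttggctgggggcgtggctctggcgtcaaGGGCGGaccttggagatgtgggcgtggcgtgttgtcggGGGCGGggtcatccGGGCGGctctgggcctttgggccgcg
Atp1b1, chr1:164458356-164458605, minus strand: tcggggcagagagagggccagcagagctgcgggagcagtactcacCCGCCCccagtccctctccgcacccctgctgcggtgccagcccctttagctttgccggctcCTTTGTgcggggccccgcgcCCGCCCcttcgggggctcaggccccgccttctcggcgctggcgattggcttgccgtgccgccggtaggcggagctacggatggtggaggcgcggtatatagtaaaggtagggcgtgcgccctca

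Among these promoters, base composition differed between the FXYD genes and the beta subunit genes Atp1b3 and Atp1b1. Atp1b2, the beta subunit gene that was higher in SCM, had no window, so a difference between whole families is not shown. Fxyd5 and Fxyd1 each had 3 CpG dinucleotides in 250 bases and Fxyd3 had 5, against a median of 6 over 32851 RefSeq promoters. Atp1b3 and Atp1b1 each had 24, more than 88.0% of those promoters. CpG content was thus alike in Atp1b3, at about 30 FPKM in both libraries, and in Atp1b1, at 4 reads or fewer. RefSeq lists a second start for Atp1b3, whose window held 35. The window of Fxyd6, which had 0 reads, held 5 CpG.

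The motifs were searched on both strands. GGGCGG, the GC box of Sp1, occurred 5 times in the Atp1b3 window and 2 times in that of Atp1b1, and was found in 32.7% of all promoters. ACAAAG, a SOX core, occurred in Fxyd1 at 188 bases before the start, in Atp1b1 and, 156 bases before the start, in the second Atp1b3 window, and was found in 16.5% of promoters. GGAATG, a TEAD core, occurred in Fxyd3 and was found in 12.6%. The TATA box TATAAA, found in 12.4% of promoters, was not in these windows. Nor was the AP-1 motif TGANTCA, found in 6.75%, or AGAACA, a core of glucocorticoid receptor elements, found in 16.1%. No motif matches overlapped. A match in a short window is a description of its letters and not a binding site.

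Atp1b2 (ENSMUSG00000041329, chr11:69599736-69605942 on GRCm38, minus strand) encodes a beta subunit that was also described as an adhesion molecule on glia. It had 15.1 FPKM (2255 reads) in SCM and 0.656 FPKM (78 reads) in DMEM. This was a 22.9-fold higher level in SCM (95% counting interval 18.3 to 29.1), where the gene ranked 2936 by FPKM, against 12802 in DMEM. Its log2 ratio on the log2(FPKM + 1) scale was 3.28, and 6 of 12334 measured rows had a higher one. It passed the limit of 1 FPKM through the SCM library alone.

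Atp1b3 (ENSMUSG00000032412, chr9:96332655-96364442, minus strand), a beta subunit found in many tissues, differed little. It had 30.1 FPKM (2635 reads) in SCM and 32.6 FPKM (2267 reads) in DMEM, and the ratio of SCM to DMEM was 0.922 (0.871 to 0.976). The counting interval excluded 1, but culture-to-culture variation was not measured. Atp1b1 (ENSMUSG00000026576, chr1:164437109-164458355, minus strand), the beta subunit typical of kidney and heart, had 4 reads in SCM and 0 in DMEM, which is 0.0354 FPKM in SCM and allows up to 0.0335 FPKM in DMEM. Its row shares 18.7% of its exon bases with Nme7 on the other strand, which had 3.98 FPKM in SCM and 4.59 FPKM in DMEM. Atp1b4, the remaining beta gene of the family list, had 0 reads in SCM and 1 read in DMEM.

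The beta subunit transcripts therefore had a different make-up in the 2 libraries. Atp1b2 made up 33.3% of the summed beta FPKM in SCM and 1.97% in DMEM. Atp1b3 made up 66.6% in SCM and 98.0% in DMEM. Atp1b3 exceeded Atp1b2 by 1.998 times in SCM and by 49.7 times in DMEM on the deposited gene lengths, and by 1.12 times in SCM and 27.9 times in DMEM at the median length of their coding transcripts. The sum over the beta genes was 45.2 FPKM in SCM and 33.3 FPKM in DMEM, 1.36 times as high in SCM. The plot of class shares shows this change in the beta class beside the smaller one in the FXYD class.

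**Figure D1:**
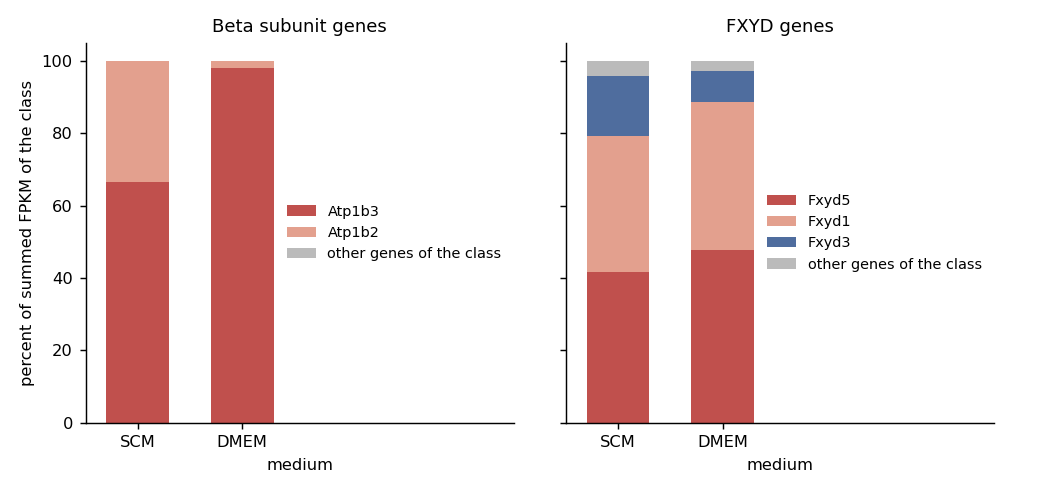
Share of each gene in the summed FPKM of its class (percent, vertical axis) in the SCM and DMEM libraries, for beta subunit genes (left) and FXYD genes (right). Atp1b2 takes 33.3% of the beta sum in SCM and 1.97% in DMEM, and on these deposited lengths Fxyd5 and Fxyd1 lead the FXYD sum in both.

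Fxyd1 (ENSMUSG00000036570, chr7:31051678-31057199, minus strand) encodes phospholemman, a pump regulator of heart and skeletal muscle that protein kinases A and C phosphorylate. It had 11.3 FPKM (904 reads) in SCM and 3.57 FPKM (227 reads) in DMEM, 3.16-fold higher in SCM (2.73 to 3.67). Fxyd5 (ENSMUSG00000009687, chr7:31032722-31042481, minus strand) encodes dysadherin, a glycoprotein that also affects cell adhesion. It had 12.5 FPKM (1914 reads) in SCM and 4.14 FPKM (505 reads) in DMEM, 3.01-fold higher in SCM (2.72 to 3.32). The intervals of Fxyd1 and Fxyd5 overlap, so at this depth their ratios were not told apart. Both genes were well above 1 FPKM in each library.

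Fxyd3 (ENSMUSG00000057092, chr7:31068172-31076704, minus strand), known from mammary tumours as Mat-8, had 4.97 FPKM (883 reads) in SCM and 0.730 FPKM (103 reads) in DMEM. It was 6.80-fold higher in SCM (5.54 to 8.42), a counting interval above those of Fxyd1 and Fxyd5, and it passed 1 FPKM in SCM alone. Of its exon bases in the table, 42.5% are also exon bases of Lgi4 on the other strand. Lgi4 encodes a secreted protein of Schwann cells that is needed for myelination. Lgi4 had 429 FPKM (72114 reads) in SCM and 117 FPKM (15614 reads) in DMEM, 3.66-fold higher in SCM (3.601 to 3.728). No source used here gives the strand setting of the counting, so reads in this overlap could belong to either row. The level of Fxyd3, its ratio between media and the place of its interval above those of Fxyd1 and Fxyd5 are therefore uncertain.

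Fxyd6 (ENSMUSG00000066705, chr9:45370185-45396159, plus strand), known as phosphohippolin from the brain, had 0 reads in both libraries, which allows up to 0.0199 FPKM in SCM and 0.0251 FPKM in DMEM. Fxyd4 also had 0 reads in both. The sum over all 7 FXYD genes of the family list was 29.96 FPKM in SCM and 8.69 FPKM in DMEM, 3.45 times as high in SCM. Within that sum, on the deposited lengths, Fxyd5 was at 41.6% in SCM and 47.7% in DMEM, and Fxyd1 at 37.7% in SCM and 41.1% in DMEM. Fxyd3 took 16.6% in SCM and 8.40% in DMEM. On the deposited gene lengths, summed FXYD FPKM was 0.663 of summed beta FPKM in SCM and 0.261 in DMEM, over the family list. Over the members alone, on the same lengths, the FXYD sum was 0.635 of the beta sum in SCM and 0.254 in DMEM. Over the members rescaled to median coding transcript length, a choice made after the data were seen, it was 2.43 times the beta sum in SCM and 1.09 times in DMEM, so which family is more abundant depends on the length used.

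**Figure D2:**
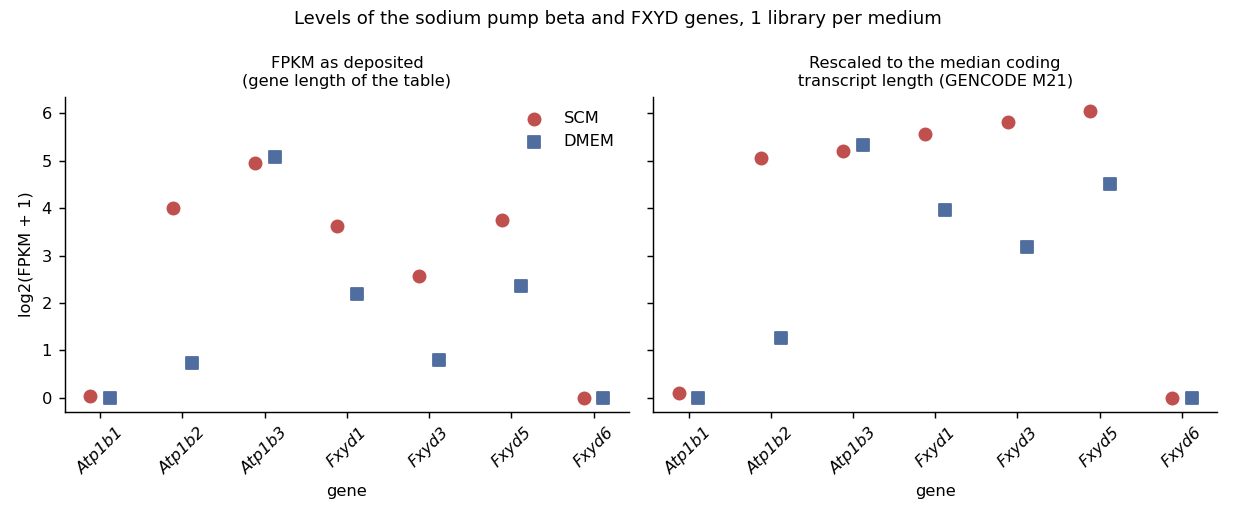
Level of each member as log2(FPKM + 1) (vertical axis) in the SCM (circles) and DMEM (squares) libraries, as deposited (left) and rescaled to the median coding transcript length (right). Atp1b2, Fxyd1, Fxyd3 and Fxyd5 lie higher in SCM in both panels. In SCM the order of Fxyd1, Fxyd3 and Fxyd5 against Atp1b3 depends on the length used, while Atp1b2 lies below Atp1b3 in both panels.

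Levels between members depend on the gene length used, whereas the plain FPKM ratio between media does not. The ratio on the log2(FPKM + 1) scale does depend on it, and was taken on the deposited lengths. The table lists 4850 bases for Fxyd3, 4192 for Fxyd5 and 2186 for Fxyd1. The median length of their protein-coding transcripts in GENCODE M21 is 439 bases for Fxyd3, 803 for Fxyd5 and 537 for Fxyd1. With the deposited FPKM the order in SCM was Atp1b3, Atp1b2, Fxyd5, Fxyd1 and Fxyd3, and in DMEM Atp1b3, Fxyd5, Fxyd1, Fxyd3 and Atp1b2. Rescaled to the median transcript length, a choice made after the data were seen, Fxyd5 came to 65.0 FPKM in SCM and 21.6 FPKM in DMEM. Fxyd3 came to 54.9 FPKM in SCM and 8.07 FPKM in DMEM. Fxyd1 came to 45.9 FPKM in SCM and 14.5 FPKM in DMEM, so Fxyd3 stood above Fxyd1 in SCM and below it in DMEM. Atp1b2 came to 32.1 FPKM in SCM and 1.40 FPKM in DMEM. On that scale the 3 FXYD genes exceeded Atp1b3 in SCM, at 36.0 FPKM, and stayed below it in DMEM, at 39.1 FPKM. The Fxyd3 values carry the uncertainty of its overlap with Lgi4. With 1 library per medium the spread around each level is unknown, so neighbours in these orders cannot be told apart.

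Of the 7 members, 5 were measured and 2 were not. On the log2(FPKM + 1) scale, with a 2-fold limit, 4 were higher in SCM, 0 lower and 1 within 2-fold. By the same limit 3.1% of all 12334 measured rows were higher in SCM and 2.8% lower, with a median log2 ratio of -0.03. Among the 10081 protein-coding rows, 2.48% were higher and 1.44% lower. Since the members were chosen with these values in view, nothing is read from their count against that share. Their log2 ratios were 3.28 for Atp1b2, 1.79 for Fxyd3, 1.43 for Fxyd1, 1.39 for Fxyd5 and -0.11 for Atp1b3. Among 6137 rows that reached 5 FPKM in each library, 95% of ratios lay between -0.80 and 0.82. Of the members only Atp1b3 is in that set, so this band is no reference for the 4 higher members.

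**Figure D3:**
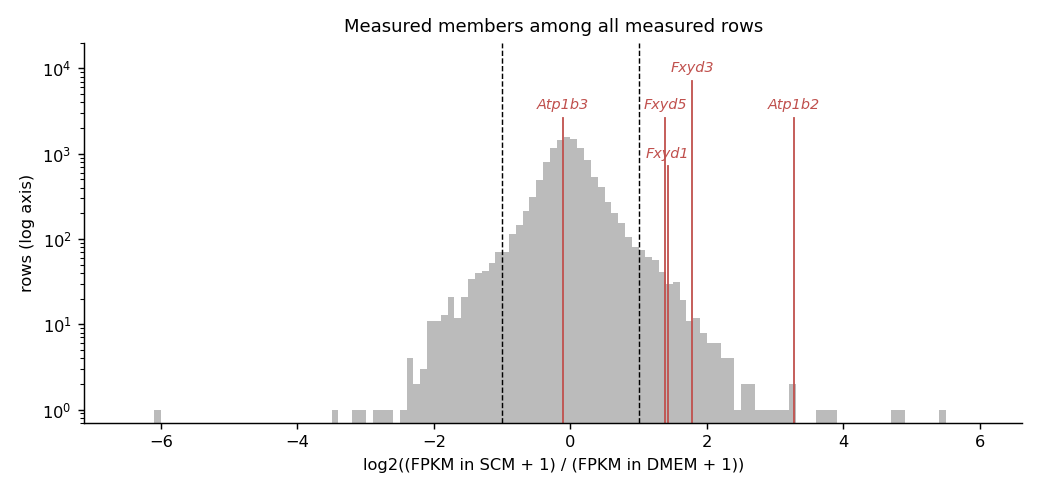
Number of rows (vertical axis, log scale) by log2((FPKM in SCM + 1) / (FPKM in DMEM + 1)) (horizontal axis) for 12334 measured rows in grey, with the 5 measured members as red lines and the 2-fold limits dashed. Atp1b3 lies at -0.11 within the bulk, Fxyd5, Fxyd1 and Fxyd3 between 1.39 and 1.79, and Atp1b2 at 3.28.

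The higher FXYD genes are neighbours. From Fxyd5 to Fxyd3 the table spans 43.98 kb of chromosome 7. Of 5 protein-coding rows there, 4 passed the 2-fold limit, in the order Fxyd5, Fxyd1, Lgi4 and Fxyd3. The remaining row was within the limit on the log2(FPKM + 1) scale, but more than 2-fold higher in SCM by plain FPKM ratio, on few reads. Over all measured rows the share higher in SCM was 3.1%. Fxyd5, Fxyd1 and Fxyd3 are members selected on these values, and Fxyd5 and Fxyd3 set the ends of the span. The count was thus largely fixed in advance, and nothing is read from it. Beyond Fxyd3, Hpn, the next protein-coding row at 22020 bases, had 0.0865 FPKM in SCM and 0.0587 FPKM in DMEM. Beyond Fxyd5, Fam187b, at 42995 bases, had 5 reads in SCM and 2 in DMEM. The nearest rows to Atp1b2 did not stand higher in SCM. Trp53, the p53 gene 7862 bases away, had 3.43 FPKM in SCM and 4.58 FPKM in DMEM, and Shbg, 8861 bases away on the other side, had 0 reads in SCM and 1 in DMEM. Tfdp2, next to Atp1b3, had 6.28 FPKM in SCM and 5.16 FPKM in DMEM.

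**Figure D4:**
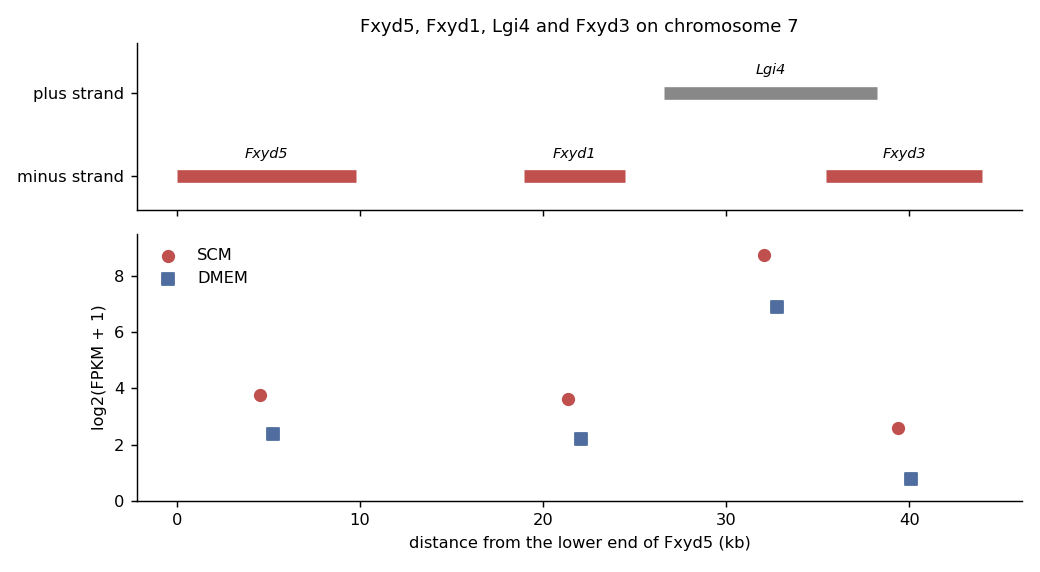
Genes of the chromosome 7 cluster by distance from the lower end of Fxyd5 (kb, horizontal axis), with their strands (top) and their levels as log2(FPKM + 1) in the SCM (circles) and DMEM (squares) libraries (bottom). All 4 genes drawn lie higher in SCM, and Lgi4 overlaps the end of Fxyd3 on the other strand. Fxyd5, Fxyd1 and Fxyd3 are members selected on these values.

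In the wider family list of 15 alpha, beta and FXYD genes, 8 were measured, 5 of them at least 2-fold higher in SCM and 0 lower, with a median log2 ratio of 1.41. The members, selected on these values, make up 5 of the 8 and 4 of the 5, and of the 3 other measured genes 1 was higher. These counts are on the log2(FPKM + 1) scale, and by plain FPKM ratio 6 of the 8 were at least 2-fold higher and 0 lower. Annotation terms of the table were looked at after the values were seen. The term for regulation of sodium ion transmembrane transporter activity holds 17 rows, 4 of them members. Of 9 measured, 3 were at least 2-fold higher, namely Fxyd1, Fxyd3 and Fxyd5, and these are members selected on these values, and of the 6 measured rows that are not members, 0 were higher and 0 lower. The term for positive regulation of ATPase activity holds 25 rows, of which 17 were measured, 1 was higher, Atp1b2, and 0 were lower. Atp1b2 is a selected member, and of the 15 measured rows that are not members, 0 were higher and 0 lower. The term for the sodium:potassium-exchanging ATPase complex had 4 measured rows, 2 higher and 0 lower, and of the 2 that are not members 1 was higher. The term for positive regulation of sodium ion export across plasma membrane holds 4 rows, all members, with 3 measured, 2 higher and 0 lower.

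Pump partners and regulators were mixed. Of 15 measured partner genes, 2 were higher in SCM and 1 lower on the log2(FPKM + 1) scale, with a median of 0.14. By plain FPKM ratio 2 were at least 2-fold higher and 2 at least 2-fold lower. Nkain2, which encodes a membrane protein that interacts with the pump, had 14.7 FPKM in SCM and 3.796 FPKM in DMEM, 3.88-fold higher (3.53 to 4.27). Plcb1, a phospholipase C gene, had 3.85 FPKM in SCM and 1.33 FPKM in DMEM. Of 12 measured regulators, 1 was higher in SCM and 1 lower (median 0.09). Wnk4, a kinase gene of salt transport, had 2.498 FPKM in SCM and 0.365 FPKM in DMEM. Sgk1, a kinase gene that promotes sodium transport, had 0.829 FPKM in SCM and 3.12 FPKM in DMEM.

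Carriers that use or balance the sodium gradient were counted by the same limit on the log2(FPKM + 1) scale. Of 12 measured genes of sodium-coupled ion transport, 0 passed it in either direction, with a median of 0.02, and by plain FPKM ratio 1 was 2-fold lower in SCM, Slc9a5. Slc9a3r1, a scaffold gene of the sodium-proton exchanger, came nearest the limit on the log2 scale, at 84.2 FPKM in SCM and 42.7 FPKM in DMEM. Slc9a5, a sodium-proton exchanger gene, had 0.370 FPKM in SCM and 1.21 FPKM in DMEM, 3.28-fold lower (2.49 to 4.38). Of 8 measured genes of sodium-coupled nutrient uptake, 0 were higher in SCM and 2 lower (median -0.20). These were the amino acid transporter gene Slc38a2, at 9.70 FPKM in SCM and 36.0 FPKM in DMEM, and the glycine transporter gene Slc6a9, at 0.297 FPKM in SCM and 2.34 FPKM in DMEM. Slc1a4, a neutral amino acid transporter gene, had 0.458 FPKM in SCM and 1.39 FPKM in DMEM, 3.04-fold lower by plain ratio and within the limit on the log2 scale.

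Of 5 measured genes of chloride cotransport and water channels, 1 was higher, the water channel gene Aqp1 at 74.2 FPKM in SCM and 1.56 FPKM in DMEM, and 0 were lower on the log2 scale. The list's median was 0.10. Slc12a5, a potassium-chloride cotransporter gene, had 0.491 FPKM in SCM and 1.10 FPKM in DMEM, over 2-fold lower by plain ratio. Of 4 measured calcium pump genes, 0 passed the 2-fold limit, with a median of -0.02. The plasma membrane calcium pump gene Atp2b1 had 25.6 FPKM in SCM and 29.6 FPKM in DMEM, and Atp2b4 9.47 FPKM in SCM and 10.1 FPKM in DMEM. The gastric and related proton pump genes, close relatives of the sodium pump, had 0 of 3 members measured and 0 reads in both libraries.

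**Figure D5:**
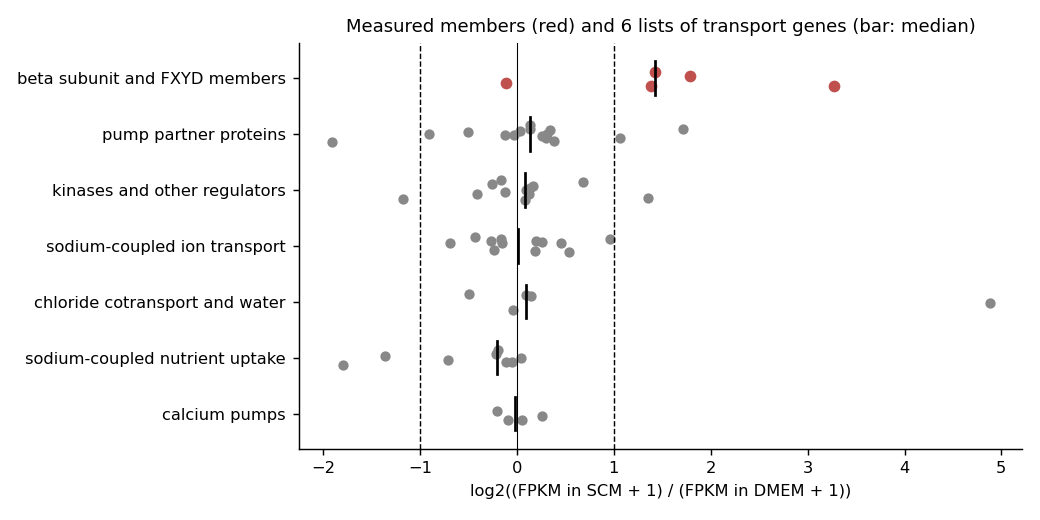
Log2((FPKM in SCM + 1) / (FPKM in DMEM + 1)) of the 5 measured members (red, top row) and of measured genes of 6 transport lists (grey), with list medians as bars and 2-fold limits dashed. The medians of the 6 lists lie between -0.20 and 0.14, and 4 of the 5 members lie beyond the upper limit, as do 3.1% of all measured rows. The members were selected on these values, so nothing is read from their contrast with the lists.

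The genes nearest to each higher member in level and ratio were found by distance on the log2(FPKM + 1) scale over the 2 libraries, which is too few points for a pattern. Nearest to Atp1b2, among the genes reported here, were the tissue factor gene F3, at 18.2 FPKM in SCM and 1.02 FPKM in DMEM, and Ndrg2, at 21.8 FPKM in SCM and 0.860 FPKM in DMEM. Nearest to Fxyd1 was Grik3, a kainate receptor gene, at 11.5 FPKM in SCM and 3.49 FPKM in DMEM, followed by Scg3, at 11.97 FPKM in SCM and 3.33 FPKM in DMEM, and Mical2. Mical2 was also among the 3 nearest to Fxyd5, after Car5b and Gstm2, at 11.3 FPKM in SCM and 3.97 FPKM in DMEM. Nearest to Fxyd3 were Dock10, at 4.53 FPKM in SCM and 0.885 FPKM in DMEM, Idi1 and Cdh18.

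Markers of other cell types that could carry pump genes were mostly absent. Of 6 endothelial and 5 epithelial markers, 0 were measured, and the endothelial FPKM summed to 0.0277 in SCM and 0.0552 in DMEM. Of 8 fibroblast markers, 1 was measured, Col1a2 at 3.15 FPKM in SCM and 0.742 FPKM in DMEM. The fibroblast sum was 3.23 FPKM in SCM and 0.927 FPKM in DMEM, while Dpt had 0 reads in both libraries and Pdgfra had 0.0408 FPKM in SCM and 0.171 FPKM in DMEM. The sum was thus nearly all Col1a2, and the other 7 markers summed to 0.0815 FPKM in SCM and 0.186 FPKM in DMEM. The part of fibroblasts in the members' levels was not tested. Of 6 macrophage markers 1 was measured, of 7 neuron markers 1, of 6 astrocyte markers 2, of 7 muscle and pericyte markers 1 and of 5 perineurial markers 3. The astrocyte sum was 38.1 FPKM in SCM and 48.1 FPKM in DMEM, nearly all of it Gja1, a connexin gene. The neuron sum, nearly all Tubb3, was 45.4 FPKM in SCM and 60.5 FPKM in DMEM. The perineurial sum was 48.4 FPKM in SCM and 34.6 FPKM in DMEM, mostly Tjp1, a tight junction gene. Of the 3 perineurial markers measured, 1 was at least 2-fold higher in SCM and 0 lower, and without Tjp1 the list summed to 7.26 FPKM in SCM and 4.04 FPKM in DMEM. The part of perineurial cells was not tested.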

How the data were processed

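TgS1 total RNA went into stranded libraries for a DNBSEQ instrument, per the labels' protocols. The table deposited by the authors gives FPKM for 55323 rows, with gene length. Per the submitters' processing notes, tools included featureCounts 2.0.1, STAR 2.7.9a, cutadapt 3.1, Trimmomatic 0.39 and Trim Galore, with builds GRCm38.p6 and mm10. No source used here gives their parameters or strand setting. Groups were taken from sample titles and columns matched by medium. The SCM column is numbered 3 and the DMEM column 1, and the deposited table has 0 other columns of sample values. The numbers alone do not show whether other replicates were made.

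FPKM times length in kb summed to 1000000 in each library, and 100% of rows came out within 0.01 of a whole read. Since each medium had 1 library, count models were not used. Ratios were taken as log2(FPKM + 1) in SCM minus the same in DMEM, which understates the ratios of low genes. A row reaching 1 FPKM in 1 or both libraries counted as measured and was called at 2-fold. Fold values are plain FPKM ratios. Of 52046 gene identifiers matched to GENCODE M21, 1457 had the same position and 50022 the same span elsewhere. Gene positions are therefore those of GENCODE M21 on GRCm38, and exon overlaps and distances were computed within the table. The steps were tested on simulated reads.

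Members and lists were chosen with earlier results of these data known. The named genes were the members, their family list, up to 3 measured genes per other list by absolute log2 ratio, overlapping or nearest protein-coding rows, and the 3 nearest protein-coding rows by level. Some genes taken by this rule are not reported here, though list counts and medians include them. Markers named were chosen after their values were seen. The alternatives changed the pseudocount, filter, scaling, unit, rows, threshold, counting interval and gene length. Python 3.11.15, pandas 2.3.3, scipy 1.17.1 and matplotlib 3.10.9 were used.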

Additional observations from a re-analysis of the deposited data

How the results depend on the processing

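The 4 members higher in SCM stayed at 4 with every pseudocount, scaling and unit tried, without a filter, in protein-coding rows, at 1.5-fold and where the counting interval had to exclude 1. With a filter of 5 FPKM they were 3, because Fxyd3 was left out. With a 3-fold limit on the log2(FPKM + 1) scale they were 2, although the plain ratios of Fxyd1 and Fxyd5 were 3.16 and 3.01. The members lower in SCM were 0 under every setting. The log2 ratio ran from 2.30 to 4.32 for Atp1b2, from 1.09 to 2.61 for Fxyd3, from 1.12 to 1.63 for Fxyd1, from 1.11 to 1.57 for Fxyd5 and from -0.18 to -0.08 for Atp1b3. Over all rows, those higher and lower in SCM were 681 and 625 with a pseudocount of 0.1 FPKM, 148 and 131 with 3 FPKM, 210 and 165 with a filter of 5 FPKM, 1011 and 1145 in TPM, 250 and 145 in protein-coding rows, 974 and 928 at 1.5-fold and 91 and 87 at 3-fold, against 382 and 345 as reported. Median scaling shifted ratios by 0.03 on the log2 scale. No paired analysis was possible because there was 1 library per medium, and for the same reason no library could be left out. Depth limits Atp1b1 and Fxyd6, whose reads were at or near the floor.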
